A study of Mus musculus with 2 samples.

Results

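The 6 genes Grik1, Grik2, Grik3, Grik4, Grik5 and Grid1 encode the kainate receptor subunits and the delta receptor GluD1. They were taken as a named list from the 55450 genes counted, and all 6 were detected in both libraries. The data are single-nucleus RNA counts from the ventrolateral periaqueductal gray (vlPAG), a midbrain region beside the cerebral aqueduct, of wild-type C57/BL6J mice. Mice 8 weeks old at the start received a high-fat diet (HFD, 18 mice) or a normal food diet (NFD, 18 mice) for 7 weeks, and the tissue of each diet gave 1 library. The HFD library kept 6322 nuclei with a median of 7347.5 unique molecular identifiers (UMIs, counts of captured RNA molecules), and the NFD library kept 7500 nuclei with a median of 4504.5. With 1 pooled library per diet, diet and library cannot be told apart, the spread between mice is unknown and no test between diets was possible. Every interval below is a 95% interval for counting error only. Levels are given as CPM, the UMIs of a gene per 1000000 UMIs of its group of nuclei.

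Kainate receptors are glutamate-gated cation channels built from 4 subunits. The subunits GluK1, GluK2 and GluK3, encoded by Grik1, Grik2 and Grik3, form channels by themselves, whereas the high-affinity subunits GluK4 and GluK5, encoded by Grik4 and Grik5, need one of the others as a partner. Kainate receptors act on both sides of the synapse, where they carry slow excitatory currents and adjust transmitter release, including release of GABA. GluD1, encoded by Grid1, shares the fold of these receptors but is best known as an adhesion protein that binds cerebellins in the synaptic cleft.

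In GRCm38, with gene boundaries from GENCODE M21, Grik1 lies on the reverse strand of chr16:87895900-88290265, Grik2 on the reverse strand of chr10:49094833-49788766 and Grik3 on the forward strand of chr4:125490700-125714173. Grik4 lies on the reverse strand of chr9:42518135-42944493, Grik5 on the reverse strand of chr7:25009849-25072346 and Grid1 on the forward strand of chr14:34820108-35583379. Grik5 spans 62.5 kb and the others span 223.5 to 763.3 kb. Whether the deposited counts include intronic reads is unknown. Levels were set between genes only per kilobase of gene span, which is the fitting length only if they do. Of the genes annotated inside these spans, only the antisense pseudogene Gm19016 within Grid1 had UMIs, 169 in all, beside 73711 for Grid1.

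Nuclei were grouped into 23 clusters without using the 6 genes. GABAergic clusters, defined by the vesicular GABA transporter and GABA synthesis genes (clusters 0, 2, 3, 7 and 12), held 2367 HFD and 3171 NFD nuclei. Glutamatergic clusters, defined by vesicular glutamate transporter genes (clusters 1, 6 and 17), held 1228 HFD and 1508 NFD nuclei. Clusters 4 and 13 carried both sets of transmitter genes, and clusters 9 and 15 were serotonergic-like and dopaminergic-like, which makes 12 neuronal clusters. Cluster 3 also carried both sets, with 236 CPM of the GABA genes and 115 CPM of the glutamate transporter genes. It lay near the 2-fold limit that set GABAergic apart from mixed clusters. Cluster 5 was led by the cerebellar granule neuron genes Gabra6, Etv1 and Fat2 and held 766 HFD nuclei but only 10 NFD nuclei. Its nuclei came from tissue labelled vlPAG, and it was left out of the neuronal comparisons. Clusters 0 and 17 had cholinergic genes (Slc5a7, and Chat with Slc5a7) among their 10 leading genes, so results are also given by cluster and without these clusters. Of the GABAergic and glutamatergic clusters only cluster 2 had a marker of its own transmitter among its 10 leading genes. Clusters 10, 11, 18 and 20 remained unnamed.

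In GABAergic clusters Grik2 stood at 2020 CPM in the HFD library and 2000 CPM in the NFD library, and Grid1 at 786 CPM in HFD and 762 CPM in NFD. Grik1 stood at 384 CPM in HFD and 434 CPM in NFD, Grik3 at 98.2 CPM in HFD and 94.2 CPM in NFD, Grik4 at 192 CPM in HFD and 175 CPM in NFD, and Grik5 at 118 CPM in HFD and 109 CPM in NFD. These CPM values are not comparable between genes, since the gene spans differ, so the shares of the kainate receptor signal are given in CPM per kilobase of gene span. On that scale Grik2 held 43.7% of the kainate receptor signal in HFD and 43.9% in NFD, Grik5 held 28.4% in HFD and 26.6% in NFD, and Grik1 held 14.6% in HFD and 16.8% in NFD. Grik3 held 6.59% in HFD and 6.43% in NFD and Grik4 held 6.77% in HFD and 6.26% in NFD on that scale. Per kilobase, Grik2 was the leading kainate receptor gene and Grik5 the next over all GABAergic clusters in both libraries. In GABAergic cluster 3 Grik5 led, with 37.2% in HFD and 36.9% in NFD, against 31.0% in HFD and 30.1% in NFD for Grik2. Cluster 3 also carried vesicular glutamate transporter genes. The place of Grik5 rests on this scale: of the kainate receptor UMIs themselves Grik5 held 4.21% in HFD and 3.88% in NFD over all GABAergic clusters.

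**Figure D1:**
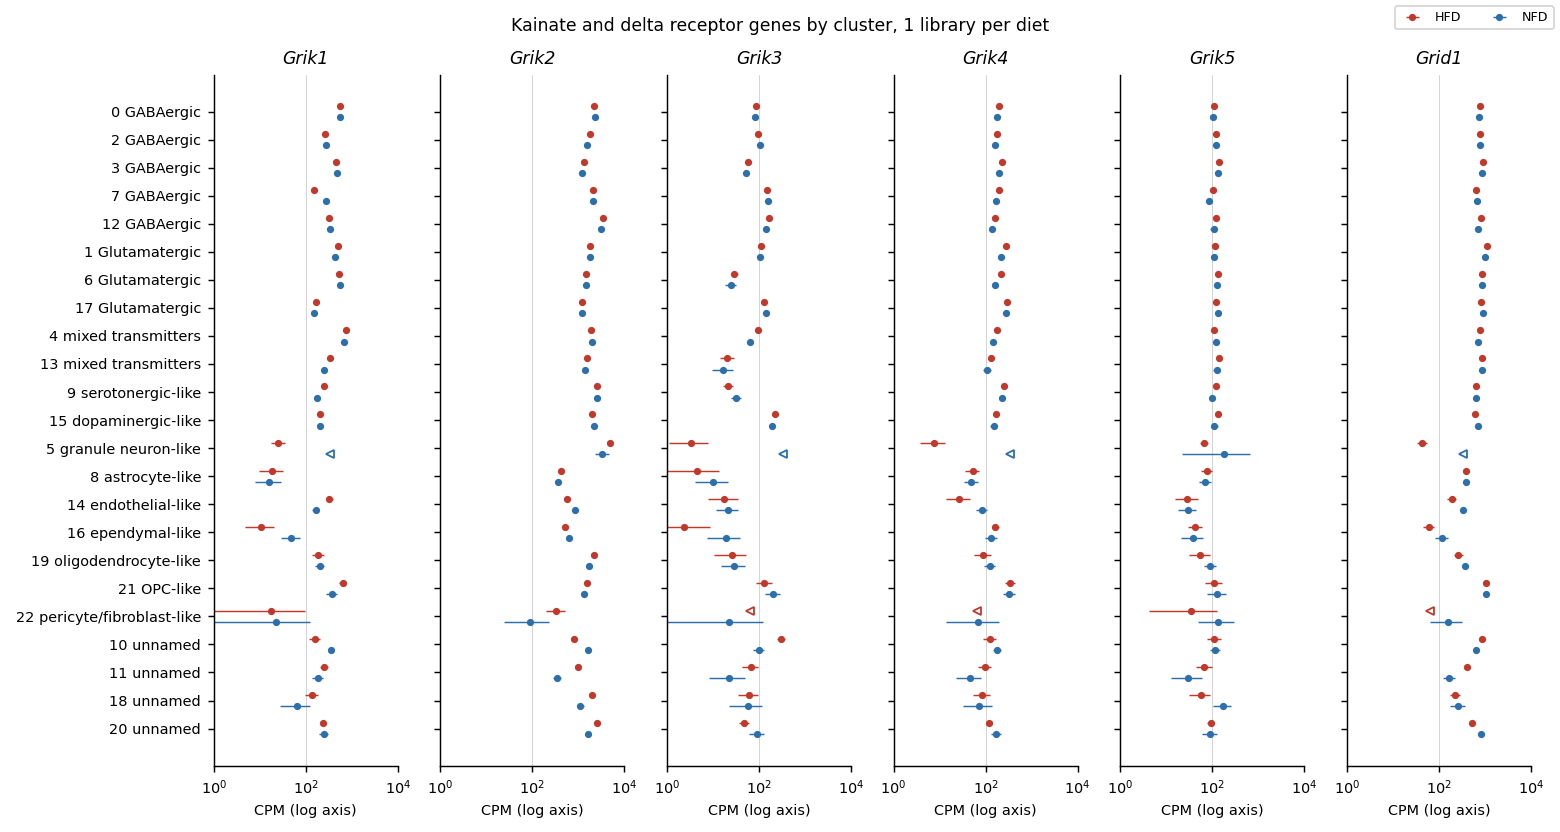
CPM of each of the 6 genes (log axis) in each of the 23 clusters, HFD library in red above the NFD library in blue, with 95% counting intervals; open triangles mark the upper limit where no UMI was counted. Grik5 stays between 84.5 and 141 CPM in the 12 neuronal clusters, whereas Grik3 spans 20.5 to 227 CPM in the HFD library.

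Grik2 varied most at the upper end. Its highest level was in the granule neuron-like cluster 5, with 4810 CPM in the HFD library, while the 10 NFD nuclei of that cluster gave 37 UMIs, or 3330 CPM. After thinning each nucleus to 2000 UMIs, all 234 remaining HFD nuclei of cluster 5 held a Grik2 UMI (100%, exact binomial interval 98.4 to 100%). Over all 766 HFD nuclei of the cluster Grik1 was at 25.2 CPM, Grik3 at 3.41 CPM, Grik4 at 7.5 CPM, Grik5 at 66.8 CPM and Grid1 at 43.6 CPM. Each of these values was below the HFD level of the same gene in all 12 neuronal clusters.

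Among the 12 neuronal clusters Grik2 was highest in the GABAergic cluster 12, which was led by 9030622O22Rik, Sst, Prox1 and Calcr, with 3490 CPM in the HFD library and 3090 CPM in the NFD library. The serotonergic-like cluster 9 came next with 2600 CPM in HFD and 2570 CPM in NFD. In both libraries each of these clusters lay above the next cluster in the order by more than counting error. The lowest neuronal levels were in cluster 17 with 1220 CPM in HFD and 1230 CPM in NFD and cluster 3 with 1310 CPM in HFD and 1220 CPM in NFD. The intervals of these clusters overlapped in the NFD library but not in the HFD library (1170 to 1270 CPM in cluster 17 and 1280 to 1340 CPM in cluster 3). After thinning, a Grik2 UMI was found in 79.7% of HFD and 80.9% of NFD nuclei of cluster 3, in 79.1% of HFD and 80.2% of NFD nuclei of cluster 17, and in 85.2% or more of the nuclei of each of the other 10 neuronal clusters in each library.

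Grik1, whose product is a kainate receptor subunit found in many inhibitory neurons, had its highest level outside the GABAergic class. Cluster 4, led by Fign, Foxp2 and Ebf2 and carrying both sets of transmitter genes, had 769 CPM in the HFD library and 691 CPM in the NFD library, above the next cluster in the order by more than counting error in both libraries. GABAergic cluster 0 followed with 546 CPM in HFD and 549 CPM in NFD and glutamatergic cluster 6 with 540 CPM in HFD and 547 CPM in NFD, and the intervals of these clusters overlapped in each library. The lowest neuronal level in the HFD library was 149 CPM in cluster 7, against 275 CPM in the NFD library, and the lowest in the NFD library was in cluster 17, with 171 CPM in HFD and 151 CPM in NFD. The gene was uneven among nuclei: the tenth of GABAergic nuclei with the most Grik1 held 56.1% of its UMIs in the HFD library and 55.5% in the NFD library, against 34.3% in HFD and 34.7% in NFD for Grik2.

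Grik3 had the widest range of the 6 genes across neuronal clusters. The dopaminergic-like cluster 15 had 227 CPM in the HFD library and 196 CPM in the NFD library, and GABAergic clusters 12 and 7 had 163 CPM in HFD and 139 CPM in NFD, and 150 CPM in HFD and 156 CPM in NFD. It stayed low in clusters 6, 9 and 13. Glutamatergic cluster 6, led by Arhgap15 and Npsr1, had 29.2 CPM in HFD and 24.3 CPM in NFD, serotonergic-like cluster 9 had 21.3 CPM in HFD and 31.2 CPM in NFD, and cluster 13 had 20.5 CPM in HFD and 16.7 CPM in NFD. In nuclei thinned to 2000 UMIs a Grik3 UMI was seen in 33.0% of HFD and 34.3% of NFD nuclei of cluster 15 but in 3.26% of HFD and 3.76% of NFD nuclei of cluster 6. The share in cluster 6 was above that of astrocyte-like nuclei of cluster 8, a type with few neuronal transcripts, in which 0.617% of HFD nuclei (interval 0.0156 to 3.39%) and 0.746% of NFD nuclei (0.0189 to 4.09%) held a Grik3 UMI, but the intervals overlapped. Median depth was 10053 UMIs in HFD and 5911 UMIs in NFD nuclei of cluster 6, and 2712.5 UMIs in HFD and 1767 UMIs in NFD nuclei of cluster 8.

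Of the high-affinity subunits, Grik4 varied more between clusters than Grik5. Grik4 was highest in cluster 21, which carried oligodendrocyte precursor markers (340 CPM from 70 UMIs in the HFD library and 324 CPM from 49 UMIs in the NFD library). Among neurons it was highest in glutamatergic cluster 17 (293 CPM in HFD and 279 CPM in NFD), followed by glutamatergic cluster 1 (273 CPM in HFD and 217 CPM in NFD) and serotonergic-like cluster 9 (256 CPM in HFD and 223 CPM in NFD), whose order differed between the libraries, and lowest in cluster 13 (129 CPM in HFD and 107 CPM in NFD). Grik5 lay between 104 and 141 CPM in the HFD library and between 84.5 and 135 CPM in the NFD library over the 12 neuronal clusters. Outside neurons Grik5 had 28.8 CPM in HFD and 29.4 CPM in NFD in endothelial-like cluster 14 and 76.4 CPM in HFD and 70.2 CPM in NFD in astrocyte-like cluster 8, both below these ranges. Precursor-like cluster 21 lay within them, with 112 CPM in HFD and 126 CPM in NFD.

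Grid1 was highest in precursor-like cluster 21 (1060 CPM in HFD and 1050 CPM in NFD) and in glutamatergic cluster 1, led by Tcf7l2, Tac1 and Lhx9 (1090 CPM in HFD and 989 CPM in NFD), which lay above the next cluster by more than counting error in both libraries. The lowest neuronal levels were in cluster 15 with 623 CPM in HFD and 701 CPM in NFD, cluster 9 with 636 CPM in HFD and 650 CPM in NFD and cluster 7 with 644 CPM in HFD and 690 CPM in NFD. Astrocyte-like cluster 8 held 381 CPM in the HFD library and 386 CPM in the NFD library. A Grid1 UMI was present in 81 of its 162 thinned HFD nuclei and 68 of its 134 thinned NFD nuclei, while a Grik1 UMI was present in 4 of the HFD and 5 of the NFD nuclei. The summed CPM of 5 neuronal marker genes in cluster 8 was 1150 in HFD and 1050 in NFD, and in cluster 1 it was 18300 in HFD and 18900 in NFD.

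The oligodendrocyte lineage carried several members. In precursor-like cluster 21 (47 HFD and 57 NFD nuclei) Grik1 stood at 631 CPM in HFD and 370 CPM in NFD, Grik2 at 1570 CPM in HFD and 1350 CPM in NFD and Grik3 at 131 CPM in HFD and 198 CPM in NFD, and the 5 neuronal marker genes summed to 1400 CPM in HFD and 1350 CPM in NFD. In mature oligodendrocyte-like cluster 19 (74 HFD and 135 NFD nuclei) Grik2 stood at 2220 CPM in the HFD library and 1710 CPM in the NFD library, while Grid1 was at 266 CPM in HFD and 368 CPM in NFD. A Grik2 UMI was found in 97.5% of its thinned HFD nuclei and 84.4% of its thinned NFD nuclei. Neuronal marker genes summed to 7200 CPM in HFD and 9160 CPM in NFD in cluster 19, and granule neuron marker genes to 522 CPM in HFD and 66.4 CPM in NFD. The part of neuronal and granule neuron RNA in these levels was not tested.

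Of the 5538 nuclei in GABAergic clusters, the 4182 with a UMI of Slc32a1, Gad1 or Gad2 were sub-clustered. This filter depends on depth: in cluster 0 it kept 483 of 676 HFD nuclei and 915 of 1512 NFD nuclei. Sub-clustering gave 9 sub-clusters, in which the 6 genes were again not used. Grik2 reached 4810 CPM in the HFD library and 4320 CPM in the NFD library in sub-cluster 8, led by the vomeronasal receptor gene Vmn1r209 and the pseudogene Vmn1r207-ps, and 3440 CPM in HFD and 3070 CPM in NFD in sub-cluster 2, led by 9030622O22Rik and Foxp2. It was low in sub-cluster 4 (Palld and Otp; 973 CPM in HFD and 832 CPM in NFD), sub-cluster 5 (Rnf220 and Lamp5; 968 CPM in HFD and 921 CPM in NFD) and sub-cluster 7 (Cdh23 and Sntg2; 919 CPM in HFD and 733 CPM in NFD). The intervals of sub-clusters 2 and 8 did not overlap those of sub-clusters 4, 5 and 7 in either library.

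Sub-cluster 7 was the one with the most Grik3, at 325 CPM (interval 291 to 362) in the HFD library and 299 CPM (263 to 338) in the NFD library, and it also had the highest Grik4 values with 288 CPM in HFD and 268 CPM in NFD. Sub-cluster 5, whose leading genes included the glutamate transporter gene Slc17a6, showed the reverse for Grik3, with 34.1 CPM in HFD and 37.0 CPM in NFD, and had the most Grid1 (1130 CPM in HFD and 1170 CPM in NFD) and the most Grik5 (174 CPM in HFD and 143 CPM in NFD). Grik1 was lowest in sub-cluster 3, led by Nr4a2 and B020031H02Rik, with 28.3 CPM (20.7 to 37.7) in the HFD library and 49.1 CPM (35.7 to 65.9) in the NFD library. The other sub-clusters had 193 to 520 CPM of Grik1 in HFD and 220 to 525 CPM in NFD. In sub-cluster 3 Grik2 was still at 2030 CPM in HFD and 2070 CPM in NFD and Grik3 at 148 CPM in HFD and 139 CPM in NFD, and Grid1 was at 498 CPM in HFD and 519 CPM in NFD, among the lowest of the sub-clusters.

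**Figure D2:**
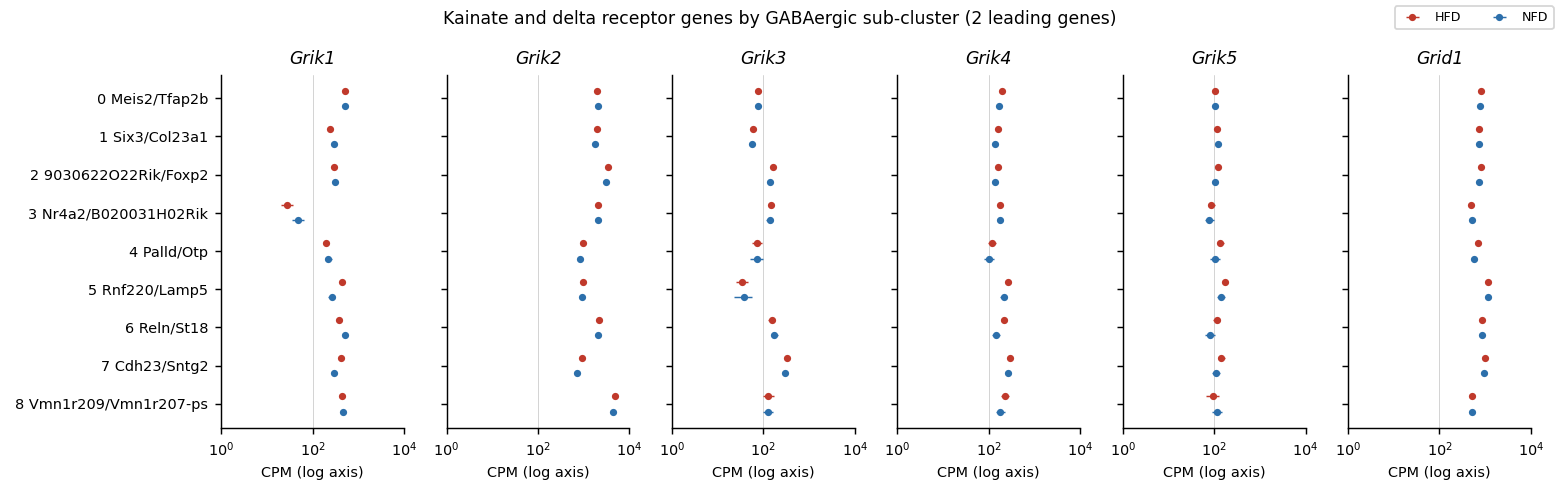
CPM of each of the 6 genes (log axis) in the 9 GABAergic sub-clusters, each named by its 2 leading genes, HFD library in red above the NFD library in blue, with 95% counting intervals. Grik1 drops to 28.3 CPM in HFD and 49.1 CPM in NFD in sub-cluster 3, and Grik2 peaks at 4810 CPM in HFD and 4320 CPM in NFD in sub-cluster 8.

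Most neurons held transcripts of several members. With each nucleus thinned to 2000 UMIs, at least 2 of the 6 genes were detected in 87.5% of HFD and 87.8% of NFD nuclei of GABAergic clusters, and in 92.6% of HFD and 91.6% of NFD nuclei of glutamatergic clusters. A transcript of Grik1, Grik2 or Grik3 was found in 93.2% of HFD and 94.9% of NFD nuclei of GABAergic clusters, and one of Grik4 or Grik5 in 45.0% of HFD and 41.0% of NFD nuclei. Like CPM, such shares are not comparable between genes of unlike span (693.9 kb for Grik2 and 62.5 kb for Grik5). At 2000 UMIs a nucleus without a UMI may still hold the transcript. Since GluK4 and GluK5 need a partner subunit, the first share was also taken among nuclei with Grik4 or Grik5. It was 93.1% (91.4 to 94.6%) in the HFD library and 94.9% (93.6 to 96.1%) in the NFD library, against 93.2% in HFD and 94.8% in NFD among the other nuclei. A difference between these nuclei was not detectable at this depth.

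Between transmitter classes, Grik2 was higher and Grik4 and Grid1 were lower in GABAergic than in glutamatergic clusters. The log2 ratio of GABAergic to glutamatergic clusters was 0.32 (0.29 to 0.34) in the HFD library and 0.25 (0.22 to 0.27) in the NFD library for Grik2. For Grik4 it was -0.42 in HFD (-0.49 to -0.36) and -0.27 in NFD (-0.35 to -0.19), and for Grid1 -0.34 in HFD (-0.37 to -0.30) and -0.32 in NFD (-0.36 to -0.28). These 3 genes kept their direction in both libraries. For Grik5 it was -0.03 in HFD (-0.11 to 0.06) and -0.08 in NFD (-0.18 to 0.03), and for Grik3 0.13 in HFD (0.03 to 0.22) and 0.09 in NFD (-0.03 to 0.21).

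A gene was called here only if its interval lay wholly above 0.32 or below -0.32 on the log2 scale and it had at least 100 UMIs. By that rule 1 of the 6 members, Grik4 (lower), was called in the HFD library, where 8.57% of the 13008 genes read were called. The Grik4 call was lost after thinning to 2000 UMIs (-0.44, -0.59 to -0.29), with groups set by transmitter UMIs (-0.32, -0.38 to -0.25) and with all 2000 variable genes (-0.38, -0.44 to -0.31), and the number of members called ranged from 0 to 4 over the alternatives. None of the 6 was called in the NFD library, where 6.68% of 12505 genes were called. The Grik1 ratio depended on the cells counted. It was -0.29 (-0.33 to -0.24) in the HFD library and 0.02 (-0.04 to 0.07) in the NFD library, and -0.77 in HFD and -0.45 in NFD without clusters 0 and 17, a setting added after the values were seen. GABAergic cluster 0 is among the clusters richest in Grik1.

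Of the genes whose products bind these receptors, Grip1, a scaffold protein, was higher in GABAergic clusters in both libraries, at 1130 CPM against 700 CPM in glutamatergic clusters in the HFD library (log2 ratio 0.69, 0.66 to 0.73) and 1090 CPM against 731 CPM in the NFD library (0.57, 0.54 to 0.61). Neto1, an auxiliary subunit of kainate receptors, had ratios of 0.46 in HFD (0.37 to 0.56) and 0.36 in NFD (0.25 to 0.47). Adarb1, which encodes an RNA-editing enzyme acting on kainate receptor transcripts, had ratios of -0.24 in HFD and -0.25 in NFD. Neto2, the other auxiliary subunit gene, had ratios of -0.05 in HFD (-0.15 to 0.04) and -0.10 in NFD (-0.22 to 0.01). C1ql3, which encodes a secreted C1q-like protein, and the cerebellin gene Cbln2 were named after their values were seen, since both were called lower in GABAergic clusters in both libraries. C1ql3 had 5.98 CPM in GABAergic against 19.1 CPM in glutamatergic clusters in HFD (-1.68, -1.97 to -1.38) and 5.17 CPM against 19.8 CPM in NFD (-1.94, -2.30 to -1.59). Cbln2 had 1.89 CPM in GABAergic against 5.96 CPM in glutamatergic clusters in HFD (-1.66, -2.20 to -1.13) and 2.13 CPM against 7.38 CPM in NFD (-1.79, -2.38 to -1.23). The cerebellin gene Cbln4, also named after its values were seen, went the other way. It had 8.78 CPM against 7.55 CPM in HFD (0.22, -0.12 to 0.57) and 10.6 CPM against 6.16 CPM in NFD (0.78, 0.36 to 1.22). Cbln4 was called higher in GABAergic clusters in NFD only. Over all genes read, 8.57% in HFD and 6.68% in NFD were called.

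**Figure D3:**
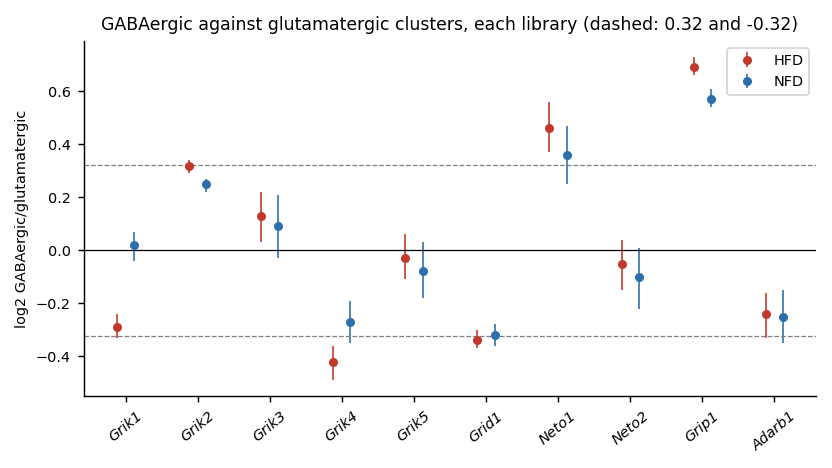
Log2 ratio of CPM in GABAergic over glutamatergic clusters for the 6 genes and 4 partner genes, HFD library in red left of the NFD library in blue, with 95% counting intervals; dashed lines mark the 0.32 limit on either side. Grik2, Neto1 and Grip1 lie above 0, and Grik4, Grid1 and Adarb1 lie below 0 in both libraries.

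Between the diets the members differed little in the main neuronal classes. In GABAergic clusters the log2 ratio of the HFD to the NFD library was -0.18 (-0.22 to -0.14) for Grik1, 0.02 (up to 0.04, with 0 inside the interval) for Grik2, 0.06 (-0.03 to 0.15) for Grik3, 0.14 (0.07 to 0.20) for Grik4, 0.12 (0.04 to 0.20) for Grik5 and 0.04 (0.01 to 0.07) for Grid1. In glutamatergic clusters it was 0.13 (0.07 to 0.18) for Grik1, -0.05 (-0.08 to -0.02) for Grik2, 0.02 (-0.10 to 0.15) for Grik3, 0.29 (0.22 to 0.37) for Grik4, 0.07 (-0.04 to 0.18) for Grik5 and 0.06 (0.02 to 0.10) for Grid1. None of the 6 was called in either class. Over all genes read, 2.21% of 13448 were called in GABAergic clusters and 2.53% of 11715 in glutamatergic clusters. The median ratio of the 6 genes was 0.05 in GABAergic and 0.07 in glutamatergic clusters, and that of all genes read was -0.02 in GABAergic and -0.04 in glutamatergic clusters.

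Of the 13 partner genes reported 8 had enough UMIs in each class, and none of them was called in GABAergic or in glutamatergic clusters, with median log2 ratios of 0.06 in GABAergic and 0 in glutamatergic clusters. By cluster, 1 partner gene was called higher in HFD in cluster 3 and 1 in cluster 9, among 5 read in each. In sub-clusters 7 and 8 it was 1 of 5 and 1 of 4, also higher. Over all genes 1.76% of pairs with neuronal clusters and 1.66% of pairs with sub-clusters were called. Partner genes were also called in clusters 10, 11, 14, 18, 19 and 20, beside 10.8% of pairs over all genes in the 11 other clusters. Neto1 stood at 137 CPM in the HFD library and 122 CPM in the NFD library in GABAergic clusters, a log2 ratio of 0.17 (0.10 to 0.25). Of 11 genes of AMPA and NMDA receptors 9 were read and none was called, with medians of 0.06 in GABAergic and 0.10 in glutamatergic clusters.

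**Figure D4:**
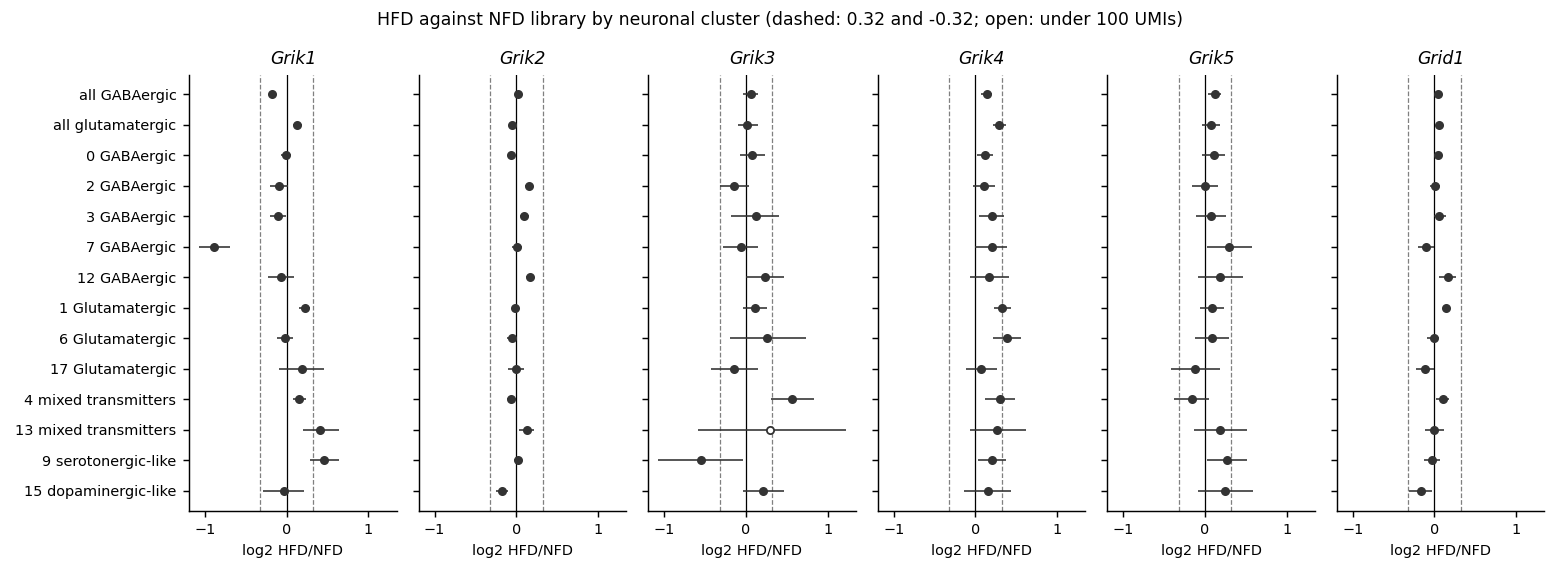
Log2 ratio of the HFD over the NFD library for each of the 6 genes in both transmitter classes and in the 12 neuronal clusters, with 95% counting intervals; dashed lines mark the 0.32 limit on either side and the open point had under 100 UMIs. Grik1 in cluster 7 lies at -0.89, and all 12 cluster points of Grik4 lie above 0.

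Grik4 was the member with the most uniform direction. Its HFD level was above its NFD level in all 12 neuronal clusters, with log2 ratios from 0.07 in cluster 17 to 0.39 (0.22 to 0.56) in cluster 6, and the interval was above 0 in 6 of them. In cluster 6 Grik4 stood at 214 CPM in the HFD library and 163 CPM in the NFD library, and in cluster 1 at 273 CPM in HFD and 217 CPM in NFD (0.33, 0.23 to 0.43). For comparison, 5.98% of the 3914 genes read in all 12 clusters were above 0 in all of them. The 12 clusters come from the same pair of libraries and are not independent. The thinned share of nuclei with a Grik4 UMI was 36.9% (34.2 to 39.7%) of HFD and 32.4% (30.1 to 34.9%) of NFD nuclei in glutamatergic clusters, and 29.8% (27.9 to 31.7%) of HFD and 27.3% (25.7 to 28.9%) of NFD nuclei in GABAergic clusters, so the intervals overlapped. In cluster 1 the share was 39.5% (35.9 to 43.1%) in HFD and 32.7% (29.8 to 35.7%) in NFD, and these intervals did not overlap. The share was lower in HFD in cluster 15 (20.0% against 26.0% in NFD) and cluster 17 (39.1% against 43.2%), with overlapping intervals.

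Of the 72 pairs of member and neuronal cluster 71 had enough UMIs, and 1 was called, where 1.76% of the 86015 pairs of gene and cluster were called over all genes. This was Grik1 in GABAergic cluster 7, led by Satb1, B020031H02Rik and Reln, with 149 CPM in the HFD library and 275 CPM in the NFD library (log2 ratio -0.89, -1.08 to -0.70). The thinned share with a Grik1 UMI in cluster 7 was 15.0% (11.1 to 19.5%) of HFD and 24.6% (19.7 to 30.1%) of NFD nuclei, and these intervals did not overlap. Cluster 7 joins sub-cluster 3, in which Grik1 is lowest, and sub-cluster 6, led by Reln and St18. Sub-cluster 3 made up 58.6% of the sub-clustered HFD nuclei of cluster 7 and 50.2% of the NFD nuclei, and sub-cluster 6 made up 32.4% in HFD and 36.9% in NFD. Within sub-cluster 6 Grik1 was at 373 CPM in the HFD library and 516 CPM in the NFD library, a log2 ratio of -0.47 (-0.68 to -0.26). The next largest ratios were those of Grik3, which did not pass the limit: 0.57 in cluster 4 (93.3 CPM in HFD and 62.7 CPM in NFD) and -0.55 in cluster 9 (21.3 CPM in HFD and 31.2 CPM in NFD).

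The Grik1 ratio over all GABAergic clusters moved with their make-up. Cluster 0, rich in Grik1 with 546 CPM in HFD and 549 CPM in NFD, held 10.7% of all HFD nuclei and 20.2% of all NFD nuclei. The class ratio rests on UMIs, in which its share differed less. Cluster 0 held 8525226 of the 25405149 UMIs of GABAergic clusters in HFD and 8861730 of 19747264 in NFD. With the cluster shares held equal in both libraries, a setting added after the values were seen, the ratio was -0.09 in place of -0.18. In glutamatergic clusters the same setting gave 0.14 for Grik1 in place of 0.13, and for Grik4 it gave 0.14 in GABAergic and 0.30 in glutamatergic clusters.

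Among the 9 GABAergic sub-clusters 51 of 54 member pairs were read and 1 was called, against 1.66% of 43076 pairs over all genes. It was Grik1 in sub-cluster 5 (Rnf220 and Lamp5), with 431 CPM in the HFD library and 263 CPM in the NFD library (log2 ratio 0.72, 0.45 to 0.99). The thinned share with a Grik1 UMI there was 27.6% in HFD and 24.2% in NFD with overlapping intervals, so the difference was not detectable in shares of nuclei.

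In the 11 other clusters 30 of 66 member pairs were read and 11 were called, 6 higher and 5 lower in the HFD library, where 10.8% of the 19116 pairs over all genes were called. All 11 lay in endothelial-like cluster 14 and the unnamed clusters 10, 11, 18 and 20. In cluster 11, led by the immune genes Inpp5d, Fyb and Ly86, Grik2 was at 970 CPM in the HFD library and 349 CPM in the NFD library (log2 ratio 1.48, 1.15 to 1.82) and Grid1 at 404 CPM in HFD and 169 CPM in NFD. The 5 neuronal marker genes summed to 8050 CPM in HFD and 5430 CPM in NFD in the same nuclei. Few nuclei of cluster 11 held these UMIs: 42 of 180 HFD and 22 of 217 NFD nuclei for Grik2. For Grid1 it was 19 HFD and 17 NFD nuclei. With each nucleus weighted equally, Grik2 in cluster 11 was at 348 CPM in HFD and 128 CPM in NFD. Grid1 was at 86.5 CPM in HFD and 59.5 CPM in NFD on that weighting. In cluster 14 Grik2 was at 554 CPM in HFD and 829 CPM in NFD (-0.58, -0.80 to -0.37) and Grid1 at 193 CPM in HFD and 328 CPM in NFD, with neuronal markers at 4230 CPM in HFD and 8660 CPM in NFD. In summed UMIs Grik1 went the other way in cluster 14, with 328 CPM in the HFD library and 167 CPM in the NFD library. Its 148 HFD UMIs lay in 8 of 96 nuclei, whereas 54 of 257 NFD nuclei held a Grik1 UMI. With each nucleus weighted equally, Grik1 in cluster 14 was at 119 CPM in HFD and 179 CPM in NFD.

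In cluster 10, led by Chst9, Gldc and Kit and holding 90 HFD and 319 NFD nuclei, Grik3 was at 303 CPM in HFD and 97.9 CPM in NFD (1.63, 1.13 to 2.14), while Grik2 was at 801 CPM in HFD and 1640 CPM in NFD and Grik1 at 156 CPM in HFD and 362 CPM in NFD. Neuronal marker genes in cluster 10 summed to 13700 CPM in HFD and 20100 CPM in NFD, and Snap25 was seen in 73.3% of HFD and 47.0% of NFD nuclei. In clusters 18 and 20 Grik2 was higher in the HFD library, at 1950 CPM in HFD and 1110 CPM in NFD in cluster 18, and at 2550 CPM in HFD and 1650 CPM in NFD in cluster 20. Grid1 in cluster 20 was at 522 CPM in HFD and 815 CPM in NFD. The granule neuron marker genes that mark cluster 5 summed to 657 CPM in the HFD library and 64.4 CPM in the NFD library in cluster 18, and to 583 CPM in HFD and 29.5 CPM in NFD in cluster 20. The part of neuronal and granule neuron RNA in the differences of these clusters was not tested.

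Across the 23 clusters, with both libraries summed, each member was set against the other genes of at least 1000 UMIs (9200 compared) by Pearson correlation of log2(CPM + 10). The points share 2 libraries and differ in depth and in neuronal content, so these values are descriptions. The closest genes were Lrrtm4 (0.96), March1 (0.93) and Grm5 (0.92) for Grik1, and Ptprr (0.91), Rims2 (0.90) and Atp2b3 (0.90) for Grik2. For Grik3 they were AC154538.1 (0.82), B230334C09Rik (0.81) and Tmem132d (0.81), and for Grik4 Gabrg3 (0.89), 2610316D01Rik (0.88) and Kcnma1 (0.88). Grik5 was closest to Gm27241 (0.90), Dzip3 (0.90) and Vps37d (0.89), and Grid1 to C530008M17Rik (0.95), St6gal2 (0.94) and E130307A14Rik (0.94). Among the members themselves Grid1 was closest to Grik1 (0.83) and Grik4 (0.82), and Grik2 and Grik4 were the least alike (0.22).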

How the data were processed

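Nuclear RNA of the vlPAG was captured with a 10x 3' kit (V3). The authors deposited UMI counts per gene and nucleus, aligned to GRCm38 (Cell Ranger 4.0.0 per the file headers; bcl2fastq 5.01 and Seurat 3.1.1 per the submitters' notes). The handling of intronic reads is not stated there, and per-kilobase values depend on it. The filter stated in the study's methods (over 500 UMIs and under 20% mitochondrial UMIs) left 6322 of 6813 HFD and 7500 of 7625 NFD barcodes deposited. The study's cell numbers equal the deposited barcodes, so the nuclei used here are fewer than the study's. They were clustered with Seurat 5.3.0 (R 4.3.3; 2000 variable genes less the members, their partner list and the genes the study lists as changed; 20 principal components; resolution 0.5, and 0.1 for GABAergic nuclei). Clusters were named from marker genes; the scoring rule and the exclusion of shallow clusters were set after the clusters were seen. Scrublet called 1 NFD and 0 HFD nuclei and was not used; 12 barcodes occurred in both libraries. UMIs were summed per library and cluster (CPM with exact Poisson intervals; ratios with exact conditional binomial intervals; shares with Clopper-Pearson intervals). Kept nuclei held 54587419 UMIs (HFD) and 41042988 UMIs (NFD). The ratio interval was tested only on simulated independent Poisson counts, the model it assumes. The simulation holds no spread between nuclei or mice, so it cannot show how the interval behaves under such spread. Of 15 partner genes 13 were used; 1 was not analysed here because it was not matched by symbol, and 1 is not reported here. The 6 members, the 3 genes most like each and the 2 leading genes of each sub-cluster were named by rule. Named partner genes were those called between diets in GABAergic or glutamatergic clusters, which were none, and the 4 others with the most UMIs (Grip1, Neto1, Adarb1 and Neto2). C1ql3, Cbln2 and Cbln4 were named outside this rule, after their values were seen. The members and lists were chosen with earlier results of these data known.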

Additional observations from a re-analysis of the deposited data

Results flagged for a closer look

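In summed UMIs Grik1 had opposite directions in the transmitter classes. Its log2 ratio of the HFD to the NFD library was -0.18 in GABAergic clusters and 0.13 in glutamatergic clusters. With 1 library per diet the difference between these ratios was not tested. With cluster shares held equal the ratio was -0.09 in GABAergic and 0.14 in glutamatergic clusters. The clusters of a class did not all share its direction. GABAergic cluster 0 had 546 CPM in HFD and 549 CPM in NFD, and glutamatergic cluster 6 had 540 CPM in HFD and 547 CPM in NFD. Of the 12 neuronal clusters 5 were above 0 and 7 below 0. The thinned share with a Grik1 UMI was 31.4% in HFD and 39.2% in NFD in GABAergic clusters. In glutamatergic clusters it was 43.4% in HFD and 43.6% in NFD.

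Members were also counted in barcodes that failed the filter on UMIs and mitochondrial share. In the HFD library 491 such barcodes held 255 UMIs of the 6 genes, or 467 CPM (411 to 528), against 3500 CPM in kept nuclei. In the NFD library 125 barcodes held 82 UMIs, or 598 CPM (476 to 743), against 3390 CPM in kept nuclei. These barcodes enter no comparison, and what they hold was not tested.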

How the results depend on the processing

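No member had an interval wholly beyond 0.32 on the log2 scale between diets in GABAergic or glutamatergic clusters in the 10 alternatives where this was counted. Ratios of each member were taken in 12 alternatives. No paired analysis was possible because there is 1 library per diet. The Grik4 ratio ranged from 0.10 to 0.20 in GABAergic and from 0.22 to 0.37 in glutamatergic clusters, and the Grik1 ratio in GABAergic clusters from -0.27 to -0.09. Of 150 alternative values of member ratios between diets, 119 stayed within the counting interval and 31 moved beyond it. No ratio whose interval was clear of 0 changed sign. Ratios whose interval held 0 did: Grik2 in GABAergic clusters (-0.12 to 0.13) was above 0 in 8 of 12 alternatives, and Grik3 in 7 of 12 in GABAergic (-0.03 to 0.14) and in 7 of 12 in glutamatergic clusters (-0.07 to 0.17). Between transmitter classes 58 of 132 values moved, and the Grik1 ratio in NFD, 0.02 in the report, was above 0 in 1 of 11 alternatives (-0.45 to 0.03). The count of members beyond that limit between transmitter classes in the HFD library, 1 in the report, was 0 after thinning to 2000 UMIs, 3 under 5% mitochondrial UMIs, 4 at resolution 1.0 and with 30 principal components, and 2 without the highest doublet scores, with groups by transmitter UMIs, with all 2000 variable genes, with nuclei of 2000 to 10000 UMIs, and without clusters 0 and 17. In the NFD library, 0 in the report, it was 1 with groups by transmitter UMIs, at resolution 1.0 and without clusters 0 and 17. The Grik3 ratio of GABAergic to glutamatergic clusters in the HFD library, 0.13 in the report, was -0.06 in nuclei of 2000 to 10000 UMIs. The share of all genes called between diets, 2.21% in GABAergic and 2.53% in glutamatergic clusters, was 1.15% in GABAergic and 1.03% in glutamatergic clusters after thinning to 2000 UMIs, and 1.26% in glutamatergic clusters in nuclei of 2000 to 10000 UMIs. The cause of these changes was not tested. The thinned counts limit the low genes most.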
